A study of Drosophila melanogaster with 18 samples.

Results

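Gap genes are the transcription factor genes that read the maternal gradients of the *Drosophila* egg and divide the early embryo into broad domains. The 9 described here were chosen by FlyBase symbol. They are the trunk genes hunchback (hb), Krüppel (Kr), knirps (kni), knirps-like (knrl) and giant (gt), the terminal genes tailless (tll) and huckebein (hkb), and the head genes buttonhead (btd) and empty spiracles (ems). They are 9 of the 9236 genes listed in at least 1 of the 3 time points, and all 9 were listed, and passed the filter on low values, at every time point. Total RNA was sequenced from whole *Drosophila melanogaster* embryos of 2 genotypes, at 3 ages counted from egg laying (0-1h, 1-2h and 2-3h). There were 3 libraries in each of the 6 groups, 18 in all. Wild type embryos came from w1118, labelled a pre-injected control, and orb2-delta-zz embryos carry an Orb2 RNA-binding protein without its zinc-binding ZZ domain. All flies were kept at 25 ºC, the embryos were dechorionated and crushed, and ribosomal RNA was depleted. The labels do not say whether the libraries of a group came from separate collections, so the p-values measure the spread between these libraries, which may be technical.

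In the fly embryo, bicoid protein from the anterior pole and Torso receptor signalling at both poles set where the gap genes are transcribed, and the proteins they encode then repress one another at their borders. Most gap genes are silent in the egg and are switched on as the zygotic genome is activated. hb differs, because the mother also loads hb mRNA, whose translation in the posterior is blocked by Nanos, Pumilio and Brat. The gap proteins in turn place the stripes of the pair-rule genes and the domains of the Hox genes.

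In the BDGP6.54 annotation, hb (FBgn0001180) spans 3R:8690980-8697822 on the minus strand and has 2 transcripts, hb-RB starting at 8697822 and hb-RA at 8694600. The deposited values are sums per gene, so the maternal and zygotic hb transcripts were not told apart. Kr (FBgn0001325) lies at 2R:25226611-25231394 on the plus strand, inside the span of CG9380 on the opposite strand, with 0 bases of exonic overlap. It was the only member whose span overlapped another annotated gene. kni (FBgn0001320, 3L:20692330-20695378) and its paralog knrl (FBgn0001323, 3L:20597141-20620659) both lie on the minus strand of 3L. They differ in size, since kni spans 3049 bases and knrl 23519, of which 15117 are its longest intron. The length of knrl is known to keep its transcript from being completed in the short early nuclear cycles. gt (FBgn0001150, X:2427113-2428967, minus strand), tll (FBgn0003720, 3R:30852315-30854400, plus strand), hkb (FBgn0261434, 3R:4345015-4346646, minus strand), btd (FBgn0000233, X:9694186-9697558, plus strand) and ems (FBgn0000576, 3R:13901853-13904620, plus strand) span 1632 to 3373 bases. The median span of the 13986 annotated protein-coding genes was 2162.5 bases.

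A library's deposited normalized counts added up to at least 33570475 and at most 38481858, and the number of reads behind them is unknown. Within a group, the lowest correlation between libraries was 0.959 (Pearson's r across genes, which are not independent replicates). Wild type replicate 2 of 1-2h stood apart from its group for the 8 gap genes other than hb, and wild type replicate 1 of 2-3h did so for hb and knrl. Results that rest on them are given with and without them. The 7 maternal markers of early embryos (bcd, nos, osk, gcl, png, CycB, smg) were listed at every time point. Of 9 ovary follicle cell markers, 0 were listed at 0-1h and 1-2h and only Yp3 at 2-3h. orb2 itself, as a total over the whole gene that does not measure the deleted part, was lower at 0-1h in the orb2-delta-zz libraries (-0.35 on the log2 scale, SE 0.0580, adjusted p = 0.00233 with limma). It did not pass at 1-2h (-0.39, adjusted p = 0.0601) or at 2-3h (-0.80, adjusted p = 0.398).

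Levels over time were described in TPM (a length-corrected share of each library's transcripts), which also allows levels of different genes to be compared. No test was run, because the time points were normalized separately. hb was already abundant in the first hour. Its TPM was 145, 126 and 149 in the wild type libraries of 0-1h and 147, 155 and 141 in those of orb2-delta-zz. At 1-2h hb stood at 91.0, 115 and 133 TPM in wild type and at 116, 148 and 157 TPM in orb2-delta-zz. At 2-3h it stood at 111, 189 and 200 TPM in wild type and at 84.1, 117 and 126 TPM in orb2-delta-zz. The wild type ranges overlapped between all 3 time points, with a 2-3h mean 1.19 times that of 0-1h. The overlap of 2-3h rests on replicate 1 (111 TPM), which also lowers that mean. The other wild type libraries of 2-3h, at 189 and 200 TPM, lay above every wild type library of both earlier times. In orb2-delta-zz every 2-3h library was below every 0-1h library, with a mean ratio of 0.737, close to the median of 0.746 over all 7534 genes.

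The other 8 members, transcribed by the embryo, were low at 0-1h and higher at each later step. Kr, a zinc finger repressor of the central trunk, had 7.50, 6.79 and 5.49 TPM in wild type at 0-1h, 28.3, 13.4 and 40.4 at 1-2h, and 155, 156 and 126 at 2-3h. In orb2-delta-zz Kr had 6.99, 5.12 and 5.45 TPM at 0-1h, 33.7, 32.5 and 39.5 at 1-2h, and 108, 150 and 173 at 2-3h. All 3 ranges of Kr were apart in both genotypes. From 0-1h to 1-2h the mean TPM of the 8 genes was higher by ratios from 3.62 (hkb) to 5.42 (tll) in wild type and from 5.57 (ems) to 9.65 (tll) in orb2-delta-zz. The wild type means of 1-2h include replicate 2, the lowest of its group for 8 of 8 genes. It makes the wild type ratios of this step lower and those of the next step higher. A mean at least 2 times as high was found for 8 of 8, against 7.48% of all genes in the wild type libraries and 7.12% in those of orb2-delta-zz. Every library of 1-2h was above every library of 0-1h, in both genotypes, for 8 of 8, against 14.3% of all genes. From 1-2h to 2-3h the ratios ran from 3.61 (tll) to 7.44 (knrl) in wild type and from 2.56 (tll) to 14.1 (knrl) in orb2-delta-zz. The wild type ratio of knrl includes replicate 1 of 2-3h, which stood apart from its group for knrl. Its place as the highest wild type ratio rests on that library. Again 8 of 8 had a mean at least 2 times as high, against 16.9% and 17.1% of all genes, and 8 of 8 had every library of 2-3h above every library of 1-2h in both genotypes, against 24.8%.

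**Figure D1:**
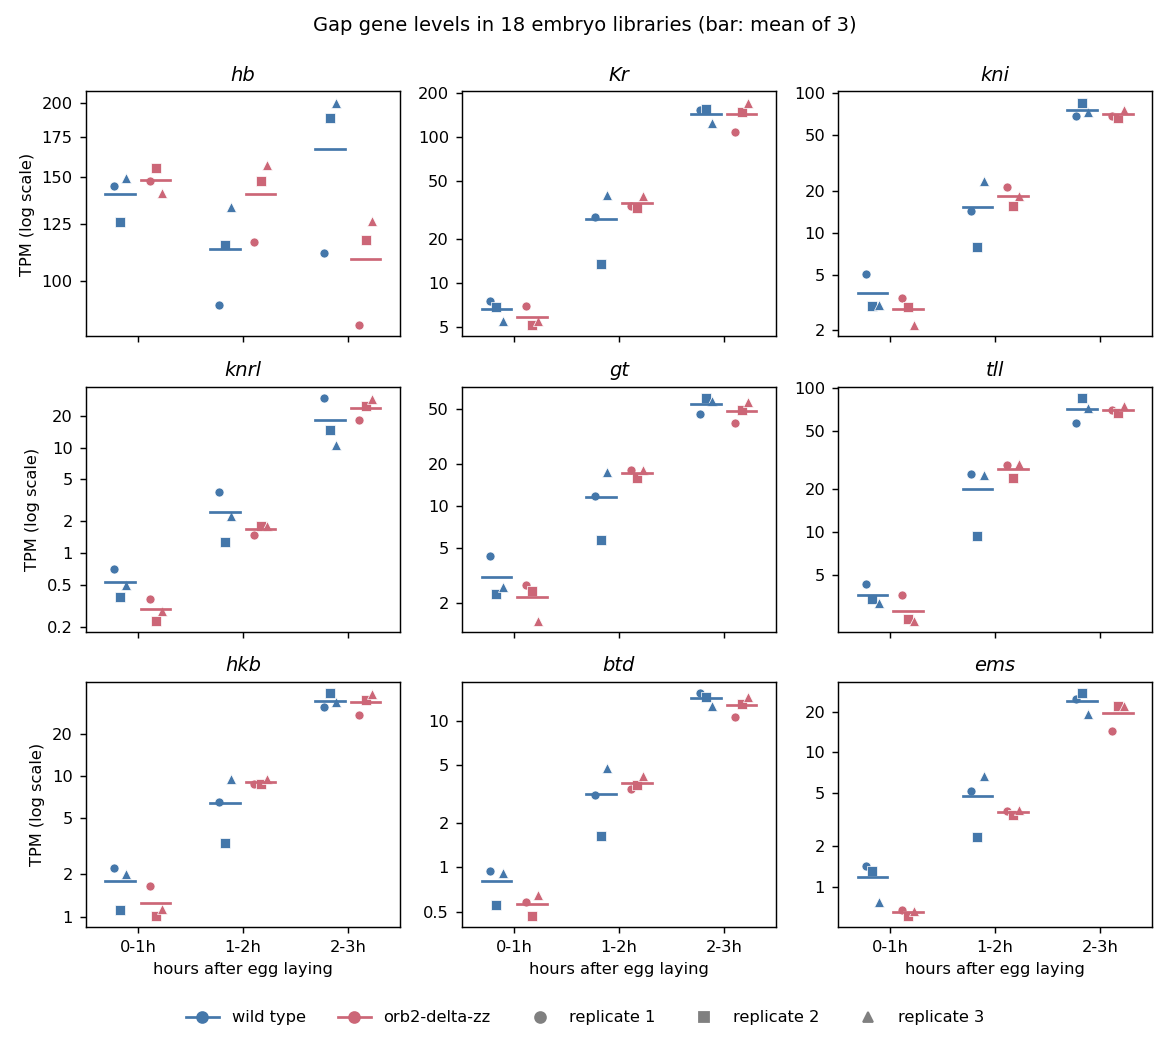
TPM (log scale) of the 9 gap genes in each of the 18 libraries against hours after egg laying, with wild type in blue, orb2-delta-zz in red, a symbol per replicate and a bar at the mean of 3. hb stays between 84.1 and 200 TPM throughout, while Kr goes from 5.12 to 7.50 TPM at 0-1h up to 108 to 173 TPM at 2-3h.

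Timing differed among the 8. tll, a nuclear receptor that patterns the head and tail ends, had the highest ratio of the first step and the lowest of the second in both genotypes, with mean TPM of 3.66, 19.8 and 71.5 in wild type, against 2.85, 27.5 and 70.4 in orb2-delta-zz. knrl, a nuclear receptor closely related to kni, had the highest ratio of the second step in orb2-delta-zz and, with all libraries, in wild type. In wild type that place rests on replicate 1 of 2-3h, at 29.5 TPM against at most 14.6 in the other wild type libraries of 2-3h. The mean TPM of knrl at 2-3h was 34.3 times that of 0-1h in wild type, a value that replicate 1 raises. In orb2-delta-zz it was 81.3 times that of 0-1h, ranking at 11 of 7534 genes. kni, a repressor in the abdomen, had mean TPM of 3.69, 15.2 and 75.2 in wild type. gt, a leucine zipper repressor in an anterior and a posterior domain, had 3.09, 11.7 and 54.7.

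The order of the levels was led by hb at 0-1h and 1-2h, apart from Kr in both genotypes. At 2-3h hb (167 ± 48.4 TPM, SD, n = 3) and Kr (145 ± 17.2) overlapped in wild type, as did Kr (144 ± 33.0) and hb (109 ± 22.1) in orb2-delta-zz. The wild type overlap rests on replicate 1, where hb had 111 TPM and Kr 155. In the other wild type libraries hb had 189 and 200 TPM, against at most 156 for Kr. kni and tll were neighbours whose ranges overlapped in both genotypes at 2-3h, followed by gt and then hkb, a zinc finger repressor at the poles, which had 34.3 ± 3.97 TPM in wild type, against 33.3 ± 5.75 in orb2-delta-zz. The lowest places at 2-3h went to ems, a homeobox gene of the head, knrl and btd, an Sp-family zinc finger gene of the head, whose neighbouring ranges overlapped. hb made up 86.8 ± 2.22% of the summed TPM of the 9 genes at 0-1h in wild type, against 90.0 ± 1.66% in orb2-delta-zz. Its share was 27.3 ± 6.27% and 20.4 ± 1.28% at 2-3h.

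The comparison of genotypes asked whether loss of the ZZ domain went with other gap gene levels at each time point. It was tested on log2(normalized count + 1) with limma across all genes, 2-sided, and p-values adjusted by Benjamini-Hochberg over all genes were read against a threshold of 0.05. No gap gene passed at any time point. At 0-1h limma called 0 of 9, against 21.3% of the 7559 genes tested. At an unadjusted p under 0.05 there were 2 of 9 (knrl and ems), against 34.4%. In 2 of 9 the groups did not overlap, against 38.9% in either direction. Both were lower in orb2-delta-zz, against 18.9% of all genes in that direction.

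ems had normalized counts of 79.4, 78.1 and 42.5 in the wild type libraries of 0-1h and 37.2, 32.6 and 37.3 in those of orb2-delta-zz. All 3 orb2-delta-zz libraries were below the lowest wild type library. The log2 fold change of ems was -0.83 (SE 0.293, 95% interval -1.49 to -0.17, limma adjusted p = 0.0725). Without wild type replicate 3 it was -1.12 and passed (adjusted p = 0.0216). That library had the lowest wild type value of ems, so this pass is not independent of its choice. Leaving out each of the 6 libraries gave -1.12 to -0.68, with limma adjusted p up to 0.221, and 1 of 6 passed. knrl had normalized counts of 52.1, 31.2 and 37.1 in wild type, against 27.2, 16.6 and 21.7 in orb2-delta-zz, again apart. Its log2 fold change was -0.84 (SE 0.334, 95% interval -1.59 to -0.09, limma adjusted p = 0.103).

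For 8 of 9 members the log2 fold change at 0-1h was below 0, with a median of -0.49 over the 9, against a median of -0.0080 over all genes tested. hb was the exception, at 0.05, and its 95% interval of -0.05 to 0.15 was the narrowest of the 9. In whole embryos, fewer cells expressing a gene and less RNA per cell cannot be told apart. The 10 late embryo markers, of which 2 passed the filter at 0-1h, had a summed TPM of 3.16 to 3.62 in wild type, against 0.648 to 2.42 in orb2-delta-zz in the same libraries. The neuronal marker elav was lower in orb2-delta-zz (log2 fold change -1.27, SE 0.291, adjusted p = 0.0131 by limma), a call lost when wild type replicate 1 was left out (0.0581). The part of this difference in the gap gene values was not tested.

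At 1-2h limma called 0 of 9 gap genes, against 7.37% of 8095 genes. At an unadjusted p under 0.05 there were 0, against 24.2%, and 0 had groups that did not overlap, against 32.8%. The log2 fold changes ran from -0.48 (knrl) and -0.35 (ems) to 0.63 (gt), with a median of 0.31 against -0.0074 over all genes, and 7 of 9 were above 0. Without wild type replicate 2 the median was -0.09 and 3 of 9 were above 0, with Kr at -0.09, kni at -0.15, tll at -0.01 and btd at -0.18. Their intervals were wide, as for gt (-0.28 to 1.53) and Kr (-0.48 to 1.30).

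At 1-2h the wild type libraries varied more than those of orb2-delta-zz. Wild type replicate 2 was the lowest of its group for 8 of 8 members other than hb, with a median of 0.365 times the other libraries of its group. Of all genes, 37.7% were lowest there. Kr had normalized counts of 1800, 720 and 2310 in wild type, against 1871, 1750 and 2158 in orb2-delta-zz. Its wild type replicate 2 stood below the other 5 libraries. The coefficient of variation of TPM over the 8 genes ran from 45.5% to 52.3% in wild type and from 4.51% to 16.2% in orb2-delta-zz. The summed TPM of the late embryo markers was highest in that same library, at 50.04 against 18.4 and 12.9 in the other wild type libraries and 6.29 to 10.9 in orb2-delta-zz. The muscle genes Act57B (23.2 TPM there, 1.03 and 0 in the other wild type libraries) and Mlc2 (10.2 TPM, against 0.658 and 0.279), chosen after their values were seen, made up most of that sum. The neuronal marker elav was lowest there (3.70 TPM, against 5.97 and 5.86). The 7 maternal markers summed to 4289 TPM in that library, above 3245 and 3643 in the other wild type libraries and 4094 to 4181 in orb2-delta-zz. The part of these in the low gap gene values was not tested.

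ems had 371, 143 and 433 normalized counts in wild type at 1-2h and 232, 209 and 230 in orb2-delta-zz. The orb2-delta-zz libraries lay between wild type replicate 2 and the other wild type libraries. Without wild type replicate 2 the log2 fold change of ems was -0.84 and passed (limma adjusted p = 0.00955). In that setting limma called 1261 of 8095 genes, against 597 with all libraries. Replicate 2 stood apart by the values of the members other than hb, ems among them, so a pass without it is not independent of that choice.

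**Figure D2:**
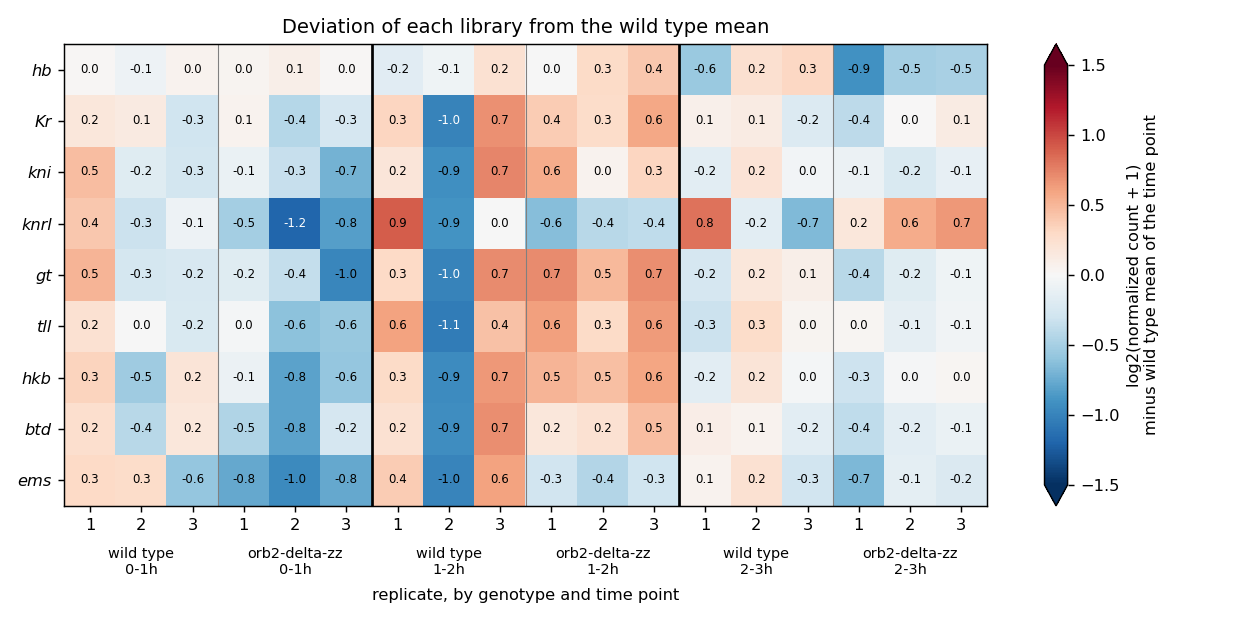
Each cell gives log2(normalized count + 1) of a gap gene in 1 library minus the wild type mean of its time point, with libraries in columns by time point, genotype and replicate, and red above and blue below that mean. At 1-2h wild type replicate 2 is the lowest wild type library for the 8 members other than hb, and at 0-1h knrl and ems have all 3 orb2-delta-zz libraries below the wild type ones.

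At 2-3h limma called 0 of 9, against 3.28% of 9014 genes. At an unadjusted p under 0.05 there was 1 of 9 (hb), against 16.3%, and 0 had groups that did not overlap, against 23.5%. The median log2 fold change was -0.15, against -0.000094 over all genes, with 8 of 9 below 0. hb had normalized counts of 9896, 17127 and 18025 in wild type, against 7732, 10227 and 10328 in orb2-delta-zz. Wild type replicate 1 lay among the orb2-delta-zz libraries and the other wild type libraries lay above them. The log2 fold change of hb was -0.63 (SE 0.249, 95% interval -1.23 to -0.04, limma adjusted p = 0.275). It was -0.91 and passed without wild type replicate 1 (adjusted p = 0.00983). In that setting limma called 1666 of 9014 genes, against 296 with all libraries. The library stood apart by the values of hb and knrl themselves, so a pass without it is not independent of that choice.

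knrl went the other way at 2-3h. Its normalized counts were 2620, 1326 and 941 in wild type, against 1667, 2177 and 2339 in orb2-delta-zz, with wild type replicate 1 above and the other wild type libraries below all 3. The log2 fold change of knrl was 0.46 (SE 0.366, limma adjusted p = 0.597). It was 0.87 and passed once wild type replicate 1 was left out (adjusted p = 0.0283). As for hb, that library had been set apart by the values of knrl themselves. The marker sums of wild type replicate 1 differed too. The 7 maternal markers summed to 668, 1307 and 2009 TPM in the wild type libraries of 2-3h, with all 3 orb2-delta-zz libraries between 1166 and 1206. The late embryo markers summed to 96.1, 63.4 and 60.7 TPM in wild type, with orb2-delta-zz at 64.5, 107 and 83.0. The part of these in the values of hb and knrl was not tested. Of the other 7 members, log2 fold changes ran from -0.34 (ems) to -0.05 (tll). Kr at -0.09 had an interval of -0.47 to 0.30, and kni at -0.15 one of -0.44 to 0.15.

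**Figure D3:**
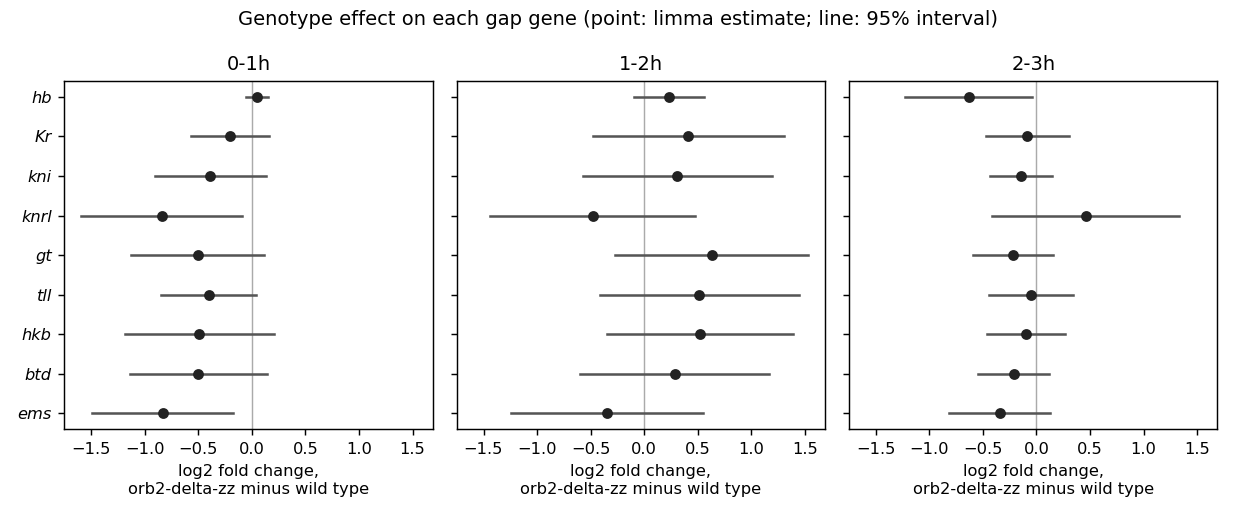
Log2 fold change of orb2-delta-zz against wild type for each gap gene at each time point (point, limma estimate on log2(normalized count + 1); line, 95% interval). At 0-1h the intervals of knrl and ems lie below 0, at 2-3h that of hb does, and 0 of the 9 passed the adjusted threshold at any time point.

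The difference of the genotype effect between time points was tested in 1 limma fit over the 18 libraries and 7470 genes. It was called for 0 of 9 gap genes in each of the 3 contrasts, against 0.120% of genes from 0-1h to 1-2h, 1.89% from 0-1h to 2-3h and 0.790% from 1-2h to 2-3h. The 3 contrasts share their libraries. For hb the effect at 2-3h minus that at 1-2h was -0.86 on the log2 scale (SE 0.267, unadjusted p = 0.00562, limma adjusted p = 0.221). Without wild type replicate 1 of 2-3h it was -1.14 and passed (adjusted p = 0.00226, or 0.00908 with separate spreads for the time points). For hb at 2-3h minus 0-1h the difference was -0.68 (adjusted p = 0.323), and -0.96 without that library (adjusted p = 0.00469, or 0.00760 with separate spreads). For knrl at 2-3h minus 0-1h it was 1.30 (adjusted p = 0.386), and 1.71 without that library (adjusted p = 0.0362, or 0.0146 with separate spreads). With separate spreads and without that library, 732 genes were called for 2-3h minus 1-2h, against 28 with all libraries. For 2-3h minus 0-1h there were 1135, against 83. That library stood apart by the values of hb and knrl themselves. The passes of hb and knrl without it are thus not independent of that choice, with shared or separate spreads. At an unadjusted p under 0.05 were gt and hkb from 0-1h to 1-2h, hb and knrl from 0-1h to 2-3h, and hb from 1-2h to 2-3h. The share of all genes under this threshold was not computed for these contrasts, so nothing is read from these members.

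Ratios between gap genes within a library do not depend on how libraries are scaled to one another. They were chosen after the values were seen and carry no test. The ratio of hb to Kr in TPM at 2-3h was 0.721, 1.21 and 1.60 in wild type, against 0.778, 0.784 and 0.728 in orb2-delta-zz. The orb2-delta-zz libraries were close to one another and lay between wild type replicate 1 and the other wild type libraries. The ratio of kni to knrl at 2-3h was 2.30, 5.82 and 6.92 in wild type, against 3.78, 2.63 and 2.65 in orb2-delta-zz. In the same groups at 1-2h it was 3.75, 6.15 and 10.4 in wild type, against 14.3, 8.60 and 10.2 in orb2-delta-zz. The mean ratio at 1-2h was 11.0 in orb2-delta-zz against 6.78, and at 2-3h it was 3.02 against 5.01, and the genotypes overlapped at both times.

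Set against the mean log2 TPM of the other 7 members apart from hb in the same library, ems at 1-2h lay between -0.96 and -0.89 in wild type and between -1.65 and -1.55 in orb2-delta-zz. The wild type range includes replicate 2, so the low level of that library was shared by ems and the other genes. The groups did not overlap, at a difference of -0.66 on the log2 scale. ems was the only member of 8 lower and apart in this measure at 1-2h, against 7.89% of all genes, each set against the mean of the 8. Kr, gt and hkb were higher and apart, by 0.21, 0.46 and 0.33, against 1.52% of all genes. Because each member is set against the others, these values are tied to one another. The shares over all genes are not a like comparison at any time point. In this measure other genes keep the variation between libraries that the members share. At 1-2h this includes the low level of wild type replicate 2, which largely cancels among the members. At 0-1h knrl was lower and apart (-2.18 against -2.57, 1 of 8 members, against 1.89% of all genes), and at 2-3h btd was (-1.74 against -1.88, 1 of 8, against 6.94%). ems overlapped at both of those times.

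**Figure D4:**
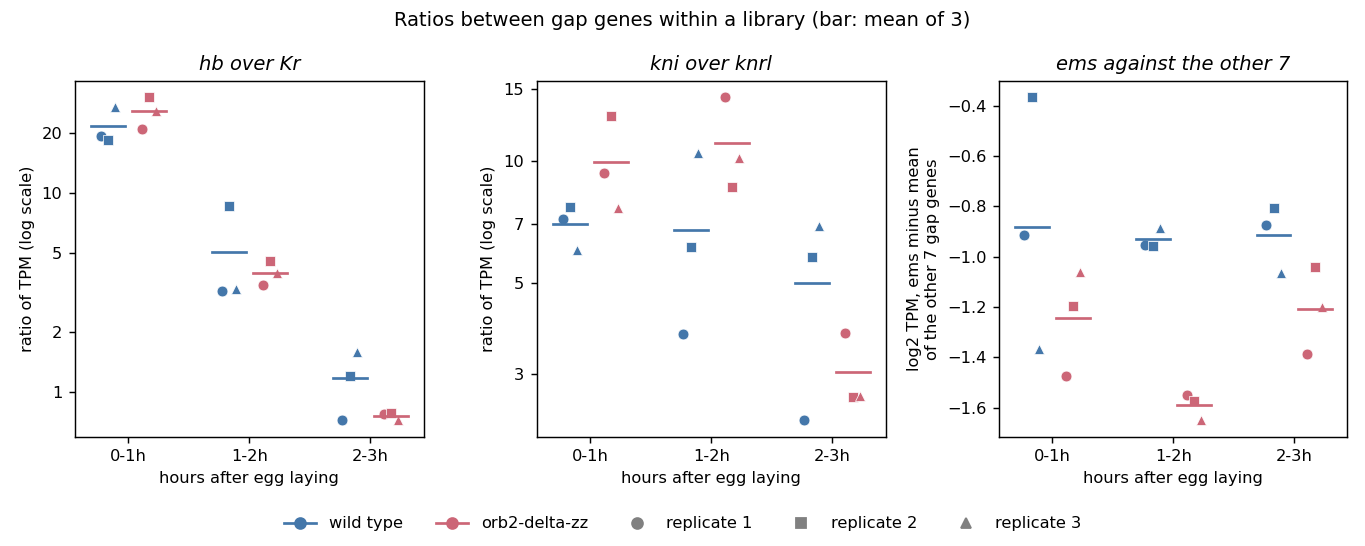
Ratios of TPM within each library for hb over Kr and kni over knrl (log scales), and log2 TPM of ems minus the mean of the other 7 zygotic gap genes (linear scale), by hours after egg laying, with wild type in blue, orb2-delta-zz in red and a bar at the mean of 3. ems at 1-2h separates the genotypes with no overlap, and at 2-3h wild type replicate 1 has hb over Kr of 0.721 and kni over knrl of 2.30, beside the orb2-delta-zz libraries.

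Among 20 maternal genes that act on the gap genes, limma called 1 higher and 4 lower in orb2-delta-zz at 0-1h, where 21.3% of all genes were called, 1 higher and 1 lower at 1-2h (7.37%) and 0 at 2-3h (3.28%). At an unadjusted p under 0.05 there were 7, 5 and 0 of 20, against 34.4%, 24.2% and 16.3% of all genes. At 2-3h, 8 of 20 were called without wild type replicate 1, where limma called 1666 of 9014 genes. The 20 had median log2 fold changes of 0.0089, 0.06 and -0.10. torso-like (tsl), which encodes a cue for Torso activation at the poles, had the largest difference among the called ones. Its normalized counts at 0-1h were 43.8, 55.6 and 41.9 in wild type, against 0, 0.778 and 3.33 in orb2-delta-zz. The groups were far apart, differing by -4.59 on the log2(normalized count + 1) scale (SE 0.629, limma adjusted p = 0.000737). The level of tsl was low, at 1.29, 1.52 and 1.25 TPM in wild type and 0, 0.024 and 0.096 TPM in orb2-delta-zz. At 1-2h tsl had 55.5, 22.7 and 44.8 in wild type, against 5.98, 2.00 and 1.03 in orb2-delta-zz (log2 fold change -3.50, limma adjusted p = 0.0139). That call was lost without wild type replicate 3 (0.0736), orb2-delta-zz replicate 2 (0.0643) or orb2-delta-zz replicate 3 (0.0521). At 2-3h tsl had 36.1, 51.3 and 32.6 in wild type, against 59.5, 34.0 and 38.4 in orb2-delta-zz, which overlapped. Whether tsl RNA in these embryos bears on Torso activation, or on tll and hkb, was not tested.

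torso (tor), the receptor, had 8456 ± 462 normalized counts in wild type at 0-1h and 7318 ± 373 in orb2-delta-zz (SD, n = 3), which differed by -0.21 on the log2 scale (limma adjusted p = 0.0221). The call was lost without wild type replicate 3, orb2-delta-zz replicate 1 or orb2-delta-zz replicate 2, and on TPM (adjusted p = 0.0719). rolled (rl), the MAP kinase below Torso, was higher at 0-1h (0.33, limma adjusted p = 0.00415) and at 1-2h (0.33, adjusted p = 0.0354). With the replicate number as a block, the 1-2h value was not called (adjusted p = 0.0678). It was also lost without wild type replicate 3 or any 1 of the orb2-delta-zz libraries. brat, a repressor of maternal hb translation, stood at -0.19 on the log2 scale at 0-1h (limma adjusted p = 0.0438). Its call was lost without any 1 library other than wild type replicate 2, on TPM (adjusted p = 0.246) and with trimmed mean scaling (0.0536). Trl, which encodes GAGA factor, stood at -0.13 (limma adjusted p = 0.0336). Its call was lost without any 1 library other than wild type replicate 3, and on TPM (adjusted p = 0.263).

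The remaining inputs fixed by name did not pass. bcd, the anterior activator of hb, had log2 fold changes of 0.01, 0.23 and -0.27 at 0-1h, 1-2h and 2-3h, with limma adjusted p-values of 0.906, 0.206 and 0.872. cad, which activates posterior gap genes, had 0.02, 0.10 and -0.40. nos, the posterior repressor of hb translation, had 0.04, -0.06 and -0.37. zld, the pioneer factor of zygotic genome activation, had -0.13, 0.05 and -0.03.

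Genes next to and below the gap genes gave the following counts. Of the other head, terminal and gap-like genes, 1 of 11 tested was called at 0-1h, lower (cnc, a leucine zipper gene of the head, -0.22, limma adjusted p = 0.00335; 0.0817 on TPM), and 0 of 12 at each later time. With an unadjusted p under 0.05 there were 6, 1 and 0 at the 3 time points, where the shares of all genes were 34.4%, 24.2% and 16.3%. At 0-1h 10 of 11 were below 0 with a median of -0.60, and 4 had groups that did not overlap, against 38.9% of all genes. Of 8 pair-rule genes, limma called 0 at each time point, and 4, 0 and 0 had an unadjusted p under 0.05. Without wild type replicate 2 of 1-2h, 1 of 8 was called, and the median was -0.27, against 0.13 with all libraries. At 0-1h 8 of 8 were below 0, with a median of -0.69, where opa stood at -0.88 (limma adjusted p = 0.118). Of the Hox genes limma called 0 of 5 tested at 0-1h and 0 of 8 at each later time, with 2, 6 and 0 at an unadjusted p under 0.05. Without wild type replicate 1 of 2-3h, 1 of 8 was called. At 1-2h 8 of 8 Hox genes were below 0 with a median of -1.01, and 6 of 8 had groups that did not overlap, against 32.8% of all genes, where 24.2% had an unadjusted p under 0.05. Without wild type replicate 1 the median was -0.81, with 7 of 8 below 0, and without wild type replicate 2 it was -1.24, with 5 of 8 called by limma. In the latter setting limma called 1261 of 8095 genes. With all libraries lab was at -1.64 at 1-2h (limma adjusted p = 0.107).

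Of 15 other early zygotic genes limma called 2 at 0-1h, both lower, sog and tld, which encode an inhibitor of BMP signalling and the protease that cleaves it. sog stood at -0.71 (limma adjusted p = 0.0192) and tld at -0.62 (adjusted p = 0.0301). Both calls were lost without wild type replicate 1, orb2-delta-zz replicate 2 or orb2-delta-zz replicate 3, and on TPM. The 15 had medians of -0.52, 0.45 and -0.32 at the 3 time points, where the gap genes had -0.49, 0.31 and -0.15. Without wild type replicate 2 the medians at 1-2h were -0.06 for the 15 and -0.09 for the gap genes. Of the 15, 14 were below 0 at 0-1h and 15 above 0 at 1-2h, or 6 without wild type replicate 2. At 1-2h and 2-3h limma called 0 of 15, or 2 at 1-2h without wild type replicate 2 and 7 at 2-3h without wild type replicate 1. In those settings limma called 1261 of 8095 and 1666 of 9014 genes. At an unadjusted p under 0.05 there were 6, 2 and 4 of 15 at the 3 time points, against 34.4%, 24.2% and 16.3% of all genes. At 0-1h 4 had groups that did not overlap, against 38.9%. Of the late embryo markers, Act87E, a muscle actin, was called lower at 1-2h (-1.40, limma adjusted p = 0.0421). The call was lost without wild type replicate 1 or any 1 of the orb2-delta-zz libraries, and on TPM. At 2-3h 0 of 8 tested were called, or 1 without wild type replicate 1. With all libraries 1 of 8 had an unadjusted p under 0.05, against 16.3% of all genes. Of the early embryo maternal markers limma called 0 of 7 at each time point. The unadjusted p was under 0.05 for 0, 1 and 0 of them, against 34.4%, 24.2% and 16.3% of all genes. With all libraries the largest value was nos at -0.37 at 2-3h. Without wild type replicate 1 of 2-3h, 4 of 7 were called and 7 of 7 were below 0, with a median of -0.80. In that setting limma called 1666 of 9014 genes. Without wild type replicate 3 of 2-3h, 0 were called and 6 of 7 were above 0, with a median of 0.18. The follicle cell marker Yp3 stood at 1.20 at 2-3h (limma adjusted p = 0.504).

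Likeness of pattern was measured by Pearson's r of log2(TPM + 1) over the 12 libraries of 1-2h and 2-3h among 6717 genes, as a description, since these libraries share their time points. The 5 genes closest to the mean of the 8 gap genes other than hb were CG15480 (0.997), trbl (0.995), Ac78C (0.994), lov (0.993) and sna (0.993). sna is the mesoderm repressor snail. Each of the 8, set against the mean of its fellows, had an r from 0.921 (knrl) to 0.997 (Kr). The 5 genes closest to hb had lower values, CG5608 (0.886), san (0.886), roh (0.878), Taf4 (0.877) and CG7044 (0.872).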

How the data were processed

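Each time point came as a table of deposited normalized counts (a signal scaled per library by the authors) and a deposited TPM table. Per the submitters' processing notes, Trim Galore 0.6.5, Salmon 1.9.1 and DESeq2 1.42.1 were used. Genome build and annotation: not given in the sources used here. Whole reads could not be recovered (26.5% to 69.6% of low values came out whole per library, at a tolerance of 0.1), so no count test was run and no depth is given. Genes with a mean of 10 or more normalized counts over the 6 libraries of a time point were tested on log2(value + 1) with limma 3.58.1 (R 4.3.3) with a trend in the spread, after a test on simulated data, in which the fit joining the time points made a larger share of false calls than its threshold. Positions come from Ensembl's BDGP6.54. The named genes were all 9 members, orb2, bcd, nos, cad, tor and zld, the called genes of each list (at most 4, otherwise the 1 with the largest change), the 5 most alike genes and overlapping genes; Trl was named after its values were seen. Members and lists were chosen with earlier results of these data known.

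At 1-2h same-numbered libraries deviated together (r = 0.159, 0.129 and 0.173), a weak hint of pairing from the data, since the labels give none. At 0-1h (0.0246, -0.0608 and 0.00435) and 2-3h (-0.126, -0.332 and -0.205) they did not. Libraries of unlike number at 2-3h reached r of 0.180, 0.165 and 0.161, so values of this size do not establish pairing. Alternatives were other pseudocounts, filters and scalings, TPM, array weights, the replicate block and leaving out each library.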

Additional observations from a re-analysis of the deposited data

How the results depend on the processing

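Across all alternatives run other than array weights and leaving out single libraries, 0 gap genes were called at any time point and in any contrast between time points. With array weights, which down-weight libraries far from their group, limma called 1 gap gene at 1-2h (ems) and 6 at 2-3h (hb, kni, knrl, gt, tll and ems), and 1842 and 3884 genes in all, where 597 and 296 were called without weights; the cause was not tested. At 1-2h these weights turned the log2 fold changes of Kr, kni and btd to -0.076, -0.30 and -0.19. Leaving out 1 library gave 1096 to 1624 called genes at 0-1h (1610 with all), 203 to 1261 at 1-2h and 77 to 1666 at 2-3h, with 0 to 1, 0 to 1 and 0 to 2 gap genes among them. It gave 0 gap genes for the contrast of 1-2h with 0-1h, 0 to 2 for 2-3h with 0-1h and 0 to 1 for 2-3h with 1-2h. Leaving out 1 library turned the direction of 4 members at 1-2h (Kr -0.088 to 0.75, kni -0.15 to 0.68, tll -0.012 to 0.82, btd -0.18 to 0.63) and 3 at 2-3h (Kr -0.19 to 0.066, tll -0.21 to 0.087, hkb -0.18 to 0.0042). For differences between time points it did so for knrl (-0.086 to 0.82) and ems (-0.0075 to 0.79) from 0-1h to 1-2h, and for Kr (-0.84 to 0.0028), kni (-0.82 to 0.0036) and ems (-0.30 to 0.49) from 1-2h to 2-3h. On TPM the difference for knrl from 0-1h to 1-2h was -0.051 and that for ems from 1-2h to 2-3h was -0.054, and the latter was -0.00079 with a pseudocount of 5. The replicate block gave 1160, 495 and 55 called genes at 0-1h, 1-2h and 2-3h and 0 gap genes at each. Among the other named genes it ended the calls of brat and Trl at 0-1h and rl at 1-2h, and no other. With Spearman's rho, 2 of the 5 genes most like hb and 1 of the 5 most like the other gap genes were among its own top 5. In an alternative chosen after seeing the data, leaving out 1 library put the median of the gap genes at 1-2h between -0.088 and 0.68, that of the 15 other early zygotic genes at 1-2h between -0.060 and 0.73, and that of the Hox genes at 2-3h between -0.12 and 0.31. hb and knrl at 2-3h passed only without wild type replicate 1 or with array weights. The unknown depth leaves the counting error of the lowest members at 0-1h unknown.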
